A study of Mus musculus with 63 samples.

Results

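RNA of whole wild-type (WT, Chaserr+/+) mouse embryos was compared between the embryonic days E9.5 and E13.5, to describe which organ programmes rose and which fell. The members were chosen by their labels alone, as all libraries of WT whole embryos of these stages, and were 6 of the 63 samples of the series, 3 at each stage. The series examined Chaserr, a long noncoding RNA gene that lies next to the chromatin remodeller gene Chd2, and the WT embryos were its controls for Chaserr+/- embryos, which lack the promoter and exon 1 of Chaserr on 1 allele and descend from 2 founder strains. Per the study's methods, guide RNAs were injected in CB6F1 Ola HSD mice, which were then backcrossed with C57BL/6 Ola HSD, so the background may be mixed. No treatment is named in the labels, and all embryo libraries were made from poly(A) RNA with the same stranded kit. The number of embryos in a library and their litters are not given in the sources used here, so p-values measure only the spread between these libraries, and stage cannot be told apart from litter or day of collection. The labels do not give sex either, and the levels of sex-linked genes are given below.

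At E9.5 the mouse embryo has a beating tubular heart, a closing neural tube, somites still being added at the tail, limb buds that have just appeared, and blood made in the yolk sac. By E13.5 the liver makes blood, cartilage models of the bones are laid down, muscle fibres form, the skin stratifies, and neurons are born throughout the brain, the spinal cord and the ganglia. A whole-embryo library mixes all of these cells, so a higher value may mean more cells of a type or more RNA per cell, and these cannot be told apart here.

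The 6 libraries held between 24875718 and 27288714 estimated counts, and globin rows took 0.297% to 0.565% of them at E9.5 and 0.976% to 1.52% at E13.5. Libraries of a stage resembled each other closely, with a first principal component of 91.8% of the variance that separated the stages. Several tissues nevertheless varied within a stage, which the plot of summed marker levels shows. The 28 rows of the list of liver secreted proteins summed to 369.7, 208 and 103 CPM at E9.5 and 554, 1506 and 265 CPM at E13.5, so that E13.5 replicate 2 stood far above the others. Lens genes summed to 19.4, 17.9 and 25.5 CPM at E9.5 and 32.7, 89.7 and 98.4 CPM at E13.5, and E13.5 replicate 1 was low. Yolk sac endoderm genes summed to 301, 234 and 200.5 CPM at E9.5 and 204, 202 and 140.5 CPM at E13.5, with E9.5 replicate 1 highest. Posterior Hox genes summed to 6.11, 3.53 and 0.285 CPM at E9.5 and 63.0, 72.0 and 61.8 CPM at E13.5, and E9.5 replicate 3 was lowest. Results that rest on these libraries are also given without them. Markers of trophoblast and decidua, the extraembryonic and maternal tissue around the embryo, summed to between 2.43 and 3.63 CPM, and Tpbpa, Psg21, Prl7a2, Ctsj, Ctsq and Ceacam5 of that list were at 0 in all 6 libraries. Xist, which is transcribed from the inactive X chromosome, was at 2288 CPM in E9.5 replicate 2 and 2145 CPM in E13.5 replicate 2 and at most 1.15 CPM in the other libraries. The Y-chromosome genes checked were at most 0.0883 CPM in both replicate 2 libraries and at least 24.7 CPM in the others. By these genes the replicate 2 libraries read as female and the others as male.

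**Figure D1:**
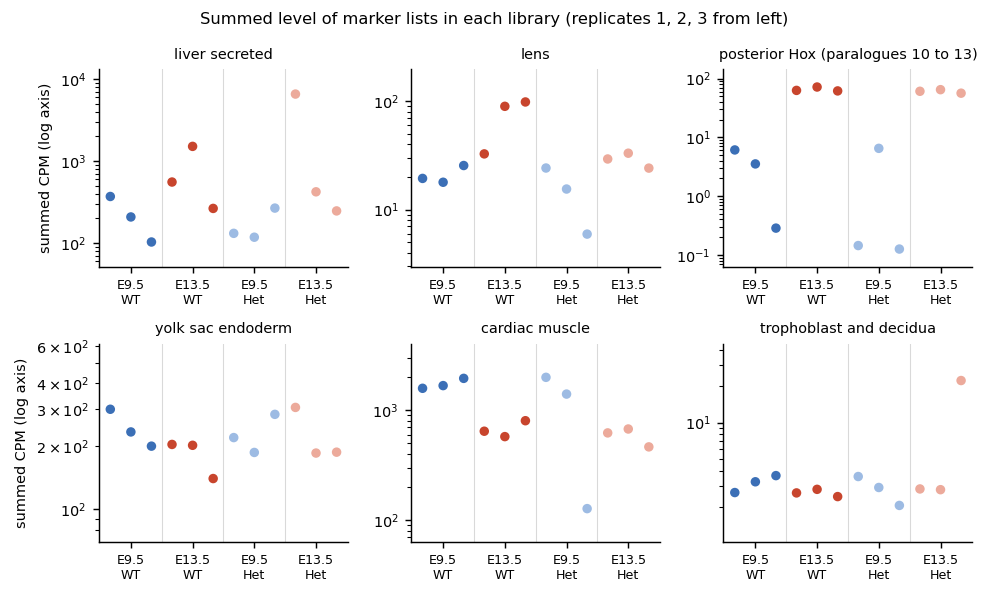
Summed level of 6 marker lists in each of the 12 embryo libraries, in CPM (counts scaled to the library size) on log axes, with 1 point per library and replicates 1 to 3 from left to right within each stage and genotype. In WT embryos (dark points) the liver list spans 265 to 1506 CPM at E13.5 and the lens list is low in E13.5 replicate 1, while cardiac genes are lower in all 3 E13.5 libraries than in all 3 E9.5 libraries.

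Levels are given as CPM, counts scaled to the library size after trimmed-mean (TMM) scaling, for 1 gene across libraries, in the order of replicates 1, 2 and 3, and as TPM, transcript abundances that account for length, wherever genes are set beside each other. Genes passed the test, and are said to be called, where the adjusted p was below 0.05 (edgeR's quasi-likelihood test, Benjamini-Hochberg over all genes tested), and fold changes are E13.5 over E9.5 on the log2 scale, written as log2 with ± their standard error (SE). Of 15761 genes tested, 42.1% were called higher and 38.3% lower at E13.5, 23.8% were called at least 2-fold higher and 10.0% at least 2-fold lower, and the CPM of the stages did not overlap in 82.8%. Counts of called members are therefore read against these shares, and the median log2 fold change of each list against that of all genes tested, 0.06. That median depends on the scaling between libraries. It was 0.25 with upper-quartile scaling and 0.39 with library totals alone, and the share of calls that were higher moved from 52.3% to 62.0% and 69.5% (of calls of at least 2-fold, from 70.3% to 80.3% and 86.3%). Changes near 0 are thus relative to the scaling used.

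The 46 lists of organ, cell type and process genes held 705 members, of which 703 had a row. Ordered by median and leaving out trophoblast, with 2 genes tested, the lowest 9 lists were the embryonic globins, the Lin28 and let-7 target genes, yolk sac endoderm, glycolysis, the early germ layer genes, ribosome biogenesis, DNA replication, mitosis and heart muscle. The highest were the adult globins, granule proteins of myeloid cells, posterior Hox genes, macrophages, connective tissue, neuronal transmitters, skeletal muscle and cartilage. These medians cover the tested members, which for granule proteins, posterior Hox genes and most macrophage genes passed the filter on low values mainly through E13.5. The place of cartilage also rests on that filter. With at least 10 counts required in every library, its median was 0.63 and that of neuronal transmitters 3.19.

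**Figure D2:**
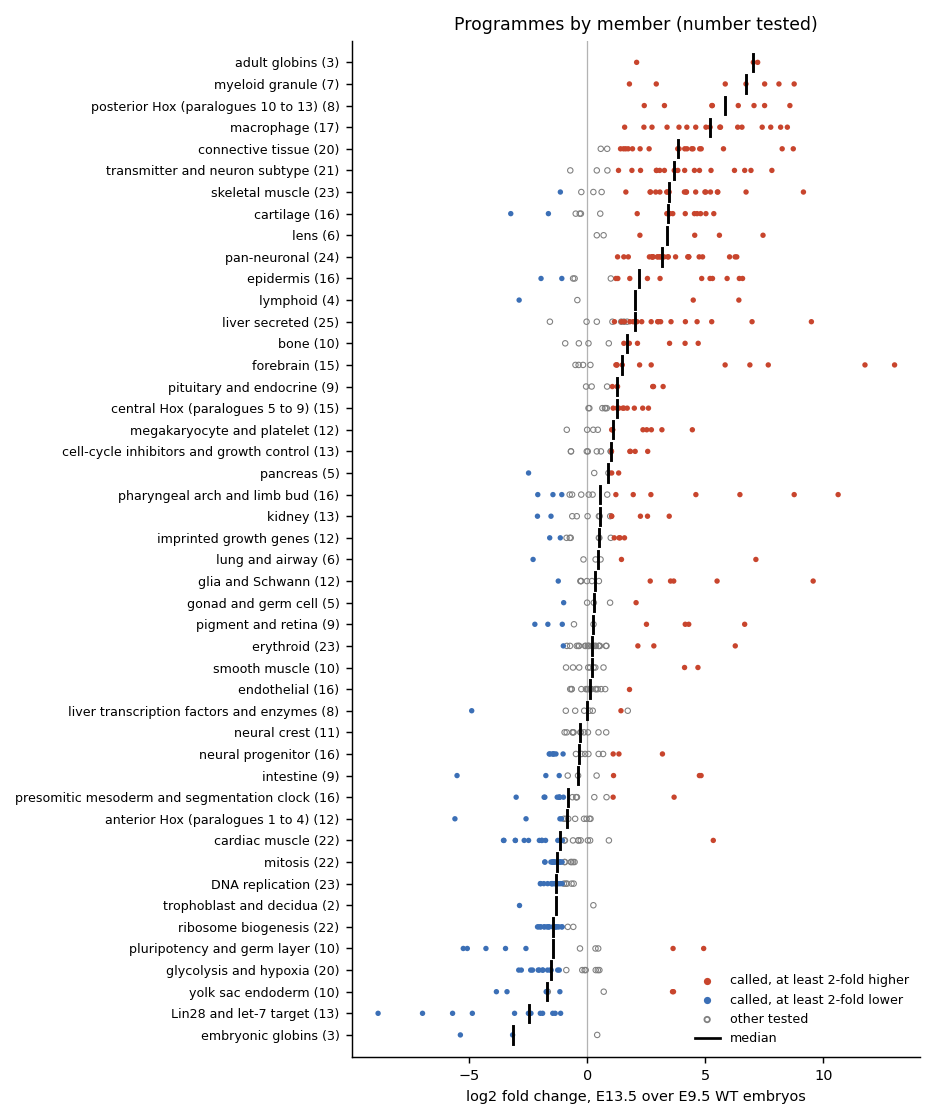
Log2 fold change of E13.5 over E9.5 WT embryos for every tested member of the 46 lists, 1 row per list ordered by its median (black bar), with the number of members tested in brackets. Filled points passed the test at 2-fold or more (red higher, blue lower), and open points are the other tested members. The medians run from -3.17 for embryonic globins to 7.04 for adult globins.

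Genes of the Lin28 and let-7 system fell together. Lin28a and Lin28b are RNA-binding proteins of early embryos that block the maturation of let-7 microRNAs, and let-7 in turn represses messenger RNAs that carry its sites, among them Lin28a, Lin28b, Trim71 and Hmga2. All 13 genes of the list were called at least 2-fold lower (median log2 fold change -2.46), against 10.0% of all genes. Lin28a was at 438, 464 and 534 CPM at E9.5 and 0.536, 1.57 and 0.937 CPM at E13.5 (log2 -8.87 ± 0.20, adjusted p = 2.38e-09). Its stages did not overlap, and its mean was 245 TPM at E9.5 and 0.617 TPM at E13.5. Lin28b was at 276, 259 and 288 CPM at E9.5 and 8.75, 10.1 and 9.20 CPM at E13.5 (log2 -4.87 ± 0.07, adjusted p = 5.60e-10). Trim71, a ubiquitin ligase that represses mRNAs, was at 61.0, 61.6 and 62.1 CPM at E9.5 and 0.9996, 1.23 and 1.28 CPM at E13.5 (log2 -5.71 ± 0.09, adjusted p = 7.12e-10). Within each stage the 3 libraries of these genes lay close together, far from those of the other stage. Prtg, a receptor-like membrane protein of the early neural tube and mesoderm, was at 644, 579 and 747 CPM at E9.5 and 4.89, 5.65 and 5.00 CPM at E13.5 (log2 -6.98 ± 0.12, adjusted p = 1.01e-09). The chromatin protein genes Hmga2 and Hmga1 (a row shared with Hmga1b) fell less far in log2 terms, by 1.89 and 2.46, and kept 117 and 285 TPM at E13.5. The mRNA-binding proteins Igf2bp1, Igf2bp2 and Igf2bp3 had log2 fold changes of -2.50, -1.36 and -1.46, and the DNA-binding Arid3a and Arid3b -2.39 and -3.08. The smallest fall of the list was that of the cell-cycle phosphatase Cdc25a, -1.13.

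The let-7 microRNAs themselves are not captured by these poly(A) libraries. Their sequences are shown because the list was drawn up as their targets. The 8 mature let-7 sequences read from RefSeq share 1 seed, bases 2 to 8, given in capitals, and differ only outside it:

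mmu-let-7a-5p: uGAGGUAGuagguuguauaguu
mmu-let-7b-5p: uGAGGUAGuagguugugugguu
mmu-let-7c-5p: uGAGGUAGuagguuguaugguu
mmu-let-7d-5p: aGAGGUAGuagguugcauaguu
mmu-let-7e-5p: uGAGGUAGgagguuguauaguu
mmu-let-7f-5p: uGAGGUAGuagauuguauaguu
mmu-let-7g-5p: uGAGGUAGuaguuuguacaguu
mmu-let-7i-5p: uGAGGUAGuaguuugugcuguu

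The letters that pair with this seed, CTACCTC, were searched on the mRNA strand of the longest annotated 3′ UTR of each gene (GENCODE vM1, build NCBIM37, which is mm9). All 13 members held at least 1 match, against 10.7% of the 13171 tested genes that had a 3′ UTR, and Lin28b, Hmga2 and Igf2bp1 held 4 each. Since the list was chosen as let-7 targets, this describes the list and is no result on its own. The 4 sites of Lin28b lie on the minus strand of chromosome 10 and are shown with the 15 bases before each, the match in capitals, to display how the flanks differ around a constant match:

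Lin28b, chr10:45100829-45100850: acccgggcgggaagtCTACCTC
Lin28b, chr10:45098455-45098476: tatacttgttagtaaCTACCTC
Lin28b, chr10:45098283-45098304: gtttacagcacatggCTACCTC
Lin28b, chr10:45096867-45096888: aaatgatggcaccgaCTACCTC

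The sites of Lin28a lie on the minus strand of chromosome 4, those of Trim71 on the minus strand of chromosome 9, and those of Prtg on its plus strand. They are shown because these 3 members fell furthest:

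Lin28a, chr4:133561105-133561126: gcacagcctgttgaaCTACCTC
Lin28a, chr4:133560467-133560488: gagatcgccacaaacCTACCTC
Trim71, chr9:114421591-114421612: aacattgcctaagtcCTACCTC
Trim71, chr9:114421495-114421516: agtgataatttctatCTACCTC
Prtg, chr9:72760365-72760386: ccctctgctgaatagCTACCTC
Prtg, chr9:72761795-72761816: gcgctcctgtttataCTACCTC

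Across all tested genes with a 3′ UTR, the 11760 without the 7 letters had a median log2 fold change of 0.06 and 9.74% were called at least 2-fold lower. The 1239 genes with 1 match had a median of -0.03 and 13.2%, and the 151 with 2 matches -0.10 and 15.2%. The 21 with 3 or more had -0.33 and 33.3%, 7 genes, 3 of which are the members with 4 matches named above. The members Lin28a, Trim71, Prtg and Arid3a are among the genes with 2 matches, and further members are among those with 1. All were called at least 2-fold lower, so these shares hold the list itself and are no separate support. The 3′ UTRs of these classes also differed in length, with medians of 1074, 2058, 3099 and 4378 bases, and the part of length in these values was not tested.

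The listed genes of cell division and ribosome assembly were all called lower at E13.5, as were most of those of glycolysis. All 23 genes of DNA replication and all 22 of mitosis were called lower, 18 and 16 of them at least 2-fold, with medians of -1.32 and -1.27. With library totals 11 and 10 were at least 2-fold lower. Mcm2, a subunit of the replicative helicase, was at 442, 471 and 435 CPM at E9.5 and 159, 177 and 174 CPM at E13.5 (log2 -1.402 ± 0.06, adjusted p = 2.95e-08). Mcm10, which loads the polymerase, was at 137, 139 and 141 CPM at E9.5 and 31.95, 37.6 and 35.2 CPM at E13.5 (log2 -1.99 ± 0.06, adjusted p = 7.89e-09). Rrm2, a subunit of the enzyme that makes deoxynucleotides, was at 476, 511 and 488 CPM at E9.5 and 122, 135 and 118 CPM at E13.5 (log2 -1.98 ± 0.06, adjusted p = 8.32e-09). The proliferation marker Mki67 was at 1212, 1269.7 and 1046 CPM at E9.5 and 471, 595 and 517 CPM at E13.5 (log2 -1.16 ± 0.10, adjusted p = 2.88e-06). Top2a, the topoisomerase of dividing cells, was at 1284, 1258 and 1156 CPM at E9.5 and 412, 509.6 and 492 CPM at E13.5 (log2 -1.39 ± 0.08, adjusted p = 2.86e-07). For all of these genes the lowest E9.5 library lay well above the highest E13.5 library. The smallest decreases were those of Nusap1, -0.54, and Tyms, -0.58. In the opposite direction, 5 of 13 genes of the list of cell-cycle inhibitors and growth control were called at least 2-fold higher and none at least 2-fold lower (median 0.99). Cdkn1c, which encodes the inhibitor p57, was at 163, 171 and 149 CPM at E9.5 and 644, 681 and 642 CPM at E13.5 (log2 2.03 ± 0.06, adjusted p = 8.93e-09). Cdkn1a was at 10.1, 12.6 and 9.38 CPM at E9.5 and 44.6, 33.9 and 33.2 CPM at E13.5 (log2 1.80 ± 0.14, adjusted p = 2.15e-06), and the log2 fold change of Cdkn2c was 2.56. Cdkn1b, another inhibitor of the same family, was not called (log2 fold change -0.02, adjusted p = 0.796), and the cyclins Ccnd1 and Ccnd2 of the list were called lower, by 0.70 and 0.69 on the log2 scale.

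Ribosome biogenesis followed the same course. All 22 genes were called lower, 20 at least 2-fold (median -1.45). Npm1, nucleophosmin, was among the 10 most abundant transcripts at E9.5, with 5547 ± 134 TPM at E9.5 and 1580.3 ± 109 TPM at E13.5 (SD, n = 3) (log2 fold change -2.07 ± 0.06 SE). Ncl, nucleolin, was at 3039, 3091 and 2922 CPM at E9.5 and 658, 738 and 700.0 CPM at E13.5 (log2 -2.11 ± 0.05, adjusted p = 3.62e-09). Mycn, the transcription factor that drives growth in many embryonic progenitors, was at 106, 117 and 110.1 CPM at E9.5 and 26.5, 28.1 and 29.3 CPM at E13.5 (log2 -1.99 ± 0.06, adjusted p = 7.17e-09). Neither overlapped between stages. Myc itself moved less, with a log2 fold change of -0.59 and an adjusted p of 2.44e-04. Ribosomal protein genes, which were not a list but stood among the most abundant transcripts, did not move as far: Rps2 had a log2 fold change of -1.18, Rps12 -0.59 and Rplp1 -0.35, Rpl41 was not called (-0.16, adjusted p = 0.0526), and the row of Rps27 and its retrogene Rps27rt was 0.34. Rpl41 stood at 0.18 with library totals.

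Of 20 genes of glycolysis and hypoxia, 14 were called lower, 13 of them at least 2-fold, and 2 higher (median -1.55). The glucose transporter gene Slc2a1 was at 467, 442 and 537 CPM at E9.5 and 86.9, 100 and 87.3 CPM at E13.5 (log2 -2.40 ± 0.09, adjusted p = 1.62e-08). Slc2a3, which encodes another glucose transporter, was at 489.8, 405 and 515 CPM at E9.5 and 65.6, 73.6 and 63.7 CPM at E13.5 (log2 -2.80 ± 0.10, adjusted p = 1.37e-08). Hk2, the hexokinase that commits glucose to the pathway, was at 171, 177 and 202 CPM at E9.5 and 23.1, 25.7 and 24.7 CPM at E13.5 (log2 -2.91 ± 0.07, adjusted p = 3.62e-09), whereas its relative Hk1 was called higher (log2 fold change 0.36, adjusted p = 8.02e-04). Gapdh, often used as a reference transcript, was at 5038, 5431 and 5032 CPM at E9.5 and 1788, 1634 and 1774 CPM at E13.5 (log2 -1.58 ± 0.05, adjusted p = 9.77e-09), without overlap between stages. The pathway's genes Aldoa, Pgk1, Pkm and Ldha had log2 fold changes between -2.32 and -1.90. Vegfa, which codes for the vessel growth factor and is induced by low oxygen, was not called (-0.12, adjusted p = 0.135), nor was the hypoxia marker Car9 (0.51, adjusted p = 0.321).

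Genes that mark the early, undifferentiated embryo and its growing tail were more often called lower than higher. Of the 10 tested genes of pluripotency and germ layer formation, 5 were called at least 2-fold lower and 2 at least 2-fold higher (median -1.46). Sall4, a zinc-finger factor of stem cells, was at 89.8, 95.6 and 96.9 CPM at E9.5 and 1.96, 2.86 and 2.53 CPM at E13.5 (log2 -5.26 ± 0.11, adjusted p = 1.68e-09). Nr6a1, a nuclear receptor that represses Pou5f1 in the gastrulating embryo, was at 224, 219.9 and 256 CPM at E9.5 and 6.75, 6.94 and 6.91 CPM at E13.5 (log2 -5.09 ± 0.08, adjusted p = 6.70e-10). The log2 fold change of the DNA methyltransferase Dnmt3b was -2.60. Pou5f1 was not tested because its counts were too low at either stage (at most 0.715 CPM), and Nanog was not called (adjusted p = 0.205). The genes against the direction of the list were Gsc, a homeobox gene of the gastrula organizer that is later used in the face and limbs, at 0.215, 0.0883 and 0.122 CPM at E9.5 and 4.07, 4.46 and 4.89 CPM at E13.5 (log2 4.93 ± 0.27, adjusted p = 1.77e-07), and Lefty1, a Nodal antagonist, with a log2 fold change of 3.63.

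Of 16 tested genes of the presomitic mesoderm and the segmentation clock, which form the somites, 8 were called at least 2-fold lower and 2 at least 2-fold higher (median -0.82). The count of those lower was 5 with upper-quartile scaling and 3 with library totals. The mesoderm factor T, brachyury, was at 2.11, 2.61 and 2.93 CPM at E9.5 and 0.607, 0.851 and 0.729 CPM at E13.5 (log2 -1.80 ± 0.22, adjusted p = 4.94e-05). Fgf8, the growth factor that keeps the tail bud undifferentiated, was at 4.604, 5.83 and 5.71 CPM at E9.5 and 0.607, 0.681 and 0.694 CPM at E13.5 (log2 -3.02 ± 0.18, adjusted p = 3.28e-07). The higher members were Evx1, also a factor of spinal interneurons, at 0.0430, 0.221 and 0.0815 CPM at E9.5 and 0.785, 2.08 and 1.67 CPM at E13.5 (log2 3.68 ± 0.56, adjusted p = 1.96e-04), and Tbx6 (log2 fold change 1.09, adjusted p = 0.0174), which stayed below 1 CPM at both stages and was not called with DESeq2. The oscillating gene Hes7 and the somite genes Mesp1, Mesp2 and Msgn1 were too low to be tested. Yolk sac endoderm genes, of which Cubn and Lrp2 encode endocytic receptors, were called at least 2-fold lower in 6 of 10 cases (median -1.69). Cubn was at 67.5, 25.9 and 7.46 CPM at E9.5 and 2.25, 2.45 and 2.26 CPM at E13.5 (log2 -3.85 ± 0.70, adjusted p = 6.42e-04). Its E9.5 libraries were uneven but all lay above E13.5. Lrp2, in contrast, was even within each stage, at 127, 121 and 129 CPM at E9.5 and 10.96, 12.5 and 12.1 CPM at E13.5 (log2 -3.40 ± 0.06, adjusted p = 1.22e-09). Without E9.5 replicate 1, where this list was highest, 4 genes were called at least 2-fold lower. Ttr, transthyretin, which yolk sac, liver and choroid plexus all make, rose against the list, and was at 18.8, 9.05 and 4.89 CPM at E9.5 and 163, 147 and 100.1 CPM at E13.5 (log2 3.65 ± 0.37, adjusted p = 1.06e-05), as did the nucleotidase gene Entpd2 (log2 3.61 ± 0.36, adjusted p = 1.00e-05).

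The order of Hox genes along each of 4 clusters follows the head-to-tail order of their expression. Most anterior genes were called lower and most central genes higher. None of the 12 anterior genes (paralogues 1 to 4) was called higher and 8 were called lower (median -0.85). With library totals 2 of them were called higher and 7 lower (median -0.52). Of the 15 central genes (paralogues 5 to 9), 12 were called higher and none lower (median 1.26), and 8 of 9 posterior genes (paralogues 10 to 13) passed the filter on low values and were called at least 2-fold higher. The posterior genes were low at E9.5 and passed that filter through E13.5, so their count is no support for a rise, and none had at least 10 counts in every library. With that many counts required, 8 central genes were called higher, 5 of them at least 2-fold, and none lower (median 0.91). Hoxb1, which patterns the hindbrain, was at 13.6, 12.5 and 13.7 CPM at E9.5 and 0.214, 0.204 and 0.382 CPM at E13.5 (log2 -5.61 ± 0.20, adjusted p = 1.46e-08). Hoxd1 was at 2.45, 2.87 and 1.43 CPM at E9.5 and 2.93, 2.08 and 2.39 CPM at E13.5 and was not called (adjusted p = 0.646). Paralogue 1 thus held both a nearly complete loss and no call.

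Among posterior genes, Hoxa10 was at 1.20, 0.751 and 0 CPM at E9.5 and 23.9, 27.3 and 23.9 CPM at E13.5 (log2 5.28 ± 0.44, adjusted p = 2.79e-06). Hoxd10 was at 3.10, 2.03 and 0 CPM at E9.5 and 9.03, 10.2 and 7.84 CPM at E13.5 (log2 2.41 ± 0.65, adjusted p = 0.00701). Hoxc10, which is active in the lumbar cord and the hind limb, was at 0, 0.0442 and 0.0408 CPM at E9.5 and 12.7, 13.54 and 11.9 CPM at E13.5, a ratio of 449 with a 95% counting interval of 124 to 3711 (adjusted p = 1.05e-08). Hoxc11 was at 0 CPM in all 3 libraries at E9.5 and 0.893, 0.851 and 0.868 CPM at E13.5, at least 6.80-fold higher when the E9.5 libraries are set to the floor of 3 counts per library (0.128 CPM), with an adjusted p of 3.06e-05. In all of these the stages did not overlap, but E9.5 replicate 3 had 0 counts of Hoxa10 and Hoxd10 where the other E9.5 libraries had them. The same library was low for the central genes. It held 0.163 CPM of Hoxa7 against 2.93 and 3.18 CPM in replicates 1 and 2, and 0.285 CPM of Hoxa9 against 8.48 and 8.97 CPM. With DESeq2 neither of these central genes nor Hoxd10 was called. DESeq2 called 5 rather than 9 central genes at least 2-fold higher. Without E9.5 replicate 3, also 5 central genes were called at least 2-fold higher, 1 central gene was called lower and the median was 0.88, while 9 posterior genes were called at least 2-fold higher, Hoxb13 included, which was then tested too. Of the digit genes, which were counted with the limb, Hoxd12 was at 0 CPM in all 3 libraries at E9.5 and 5.71, 9.26 and 7.77 CPM at E13.5 (at least 59.2-fold higher, adjusted p = 1.09e-06). Hoxd13 was at 0.258, 0.353 and 0.0408 CPM at E9.5 and 11.4, 26.6 and 19.8 CPM at E13.5 (log2 6.47 ± 0.48, adjusted p = 1.23e-06), and Hoxa13 was at least 16.3-fold higher (adjusted p = 9.34e-06).

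**Figure D3:**
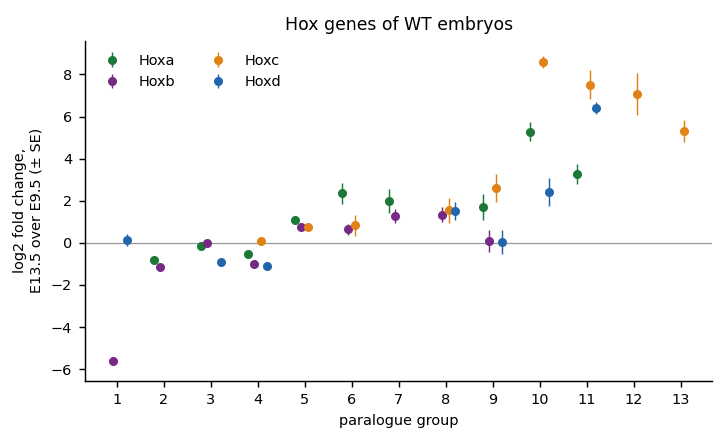
Log2 fold change (E13.5 over E9.5 WT embryos, ± SE) of the Hox genes reported here, from the anterior, central and posterior lists, against its paralogue group, coloured by cluster. Points lie at or below 0.14 for groups 1 to 4, between 0.05 and 2.59 for groups 5 to 9, and above 2.4 for groups 10 to 13. Fitted values of genes with 0 counts at E9.5, such as Hoxc11 and Hoxc12, depend on the prior count.

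Of 16 genes of pharyngeal arches and limb buds, 7 were called at least 2-fold higher and 3 at least 2-fold lower (median 0.53). The digit Hox genes among them were at or near 0 at E9.5 and passed the filter on low values through E13.5. With at least 10 counts required in every library, 3 genes were at least 2-fold higher and 2 at least 2-fold lower (median -0.02). Besides the digit Hox genes, Tbx4, the T-box factor of the hind limb and lung, was at 0.344, 0.574 and 0.204 CPM at E9.5 and 8.00, 9.22 and 10.1 CPM at E13.5 (log2 4.601 ± 0.26, adjusted p = 2.03e-07). Tbx1, the factor of the pharyngeal arches, was at 8.35, 9.45 and 12.1 CPM at E9.5 and 4.43, 4.97 and 4.76 CPM at E13.5 (log2 -1.08 ± 0.15, adjusted p = 1.10e-04). Shh, the signal of notochord, floor plate and limb, was at 22.0, 20.1 and 22.9 CPM at E9.5 and 4.25, 5.21 and 5.73 CPM at E13.5 (log2 -2.10 ± 0.12, adjusted p = 2.04e-07), and Msx2 had a log2 fold change of -1.46. None of the 11 neural crest genes reached 2-fold in either direction, and their median was -0.29, which turned to 0.04 with library totals. Tfap2a, a factor that specifies the crest, was called lower by 0.96 on the log2 scale and its paralogue Tfap2b higher by 0.47.

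Embryonic alpha-type globin and Hbb-bh1 fell, adult globins rose, and most other red cell genes were not called. Embryonic globin genes are used by red cells from the yolk sac and adult ones mainly by red cells from the liver. Hbb-bh1 was at 1718, 1618 and 927 CPM at E9.5 and 20.8, 41.4 and 40.1 CPM at E13.5 (log2 -5.38 ± 0.33, adjusted p = 3.32e-07). Hba-x, the embryonic alpha-type gene, was at 1350.2, 1438 and 768 CPM at E9.5 and 96.5, 136 and 164 CPM at E13.5 (log2 -3.17 ± 0.26, adjusted p = 2.46e-06). Their E13.5 libraries all lay far below the E9.5 libraries. The remaining embryonic gene, Hbb-y, was at 2168, 2223 and 1070.3 CPM at E9.5 and 1602, 2618 and 3083 CPM at E13.5 and was not called (log2 0.42 ± 0.29, adjusted p = 0.204), and its stages overlapped. In TPM it remained among the 10 most abundant transcripts at both stages, with 6678 ± 2313 TPM at E9.5 and 10761 ± 3363 TPM at E13.5 (SD, n = 3). The adult beta genes were nearly silent at E9.5. The row of Hbb-bs and Hbb-b1 was at 30.6, 14.04 and 9.62 CPM at E9.5 and 2081, 3472 and 1566 CPM at E13.5 (log2 7.04 ± 0.50, adjusted p = 9.24e-07). That of Hbb-bt and Hbb-b2 was at 12.8, 7.73 and 4.81 CPM at E9.5 and 1084, 1839 and 844 CPM at E13.5 (log2 7.22 ± 0.43, adjusted p = 2.61e-07). Adult alpha globin was already present at E9.5, with 733, 822 and 386 CPM at E9.5 and 2448, 3582 and 2230.4 CPM at E13.5 for the row shared by Hba-a2 and Hba-a1 (log2 2.09 ± 0.27, adjusted p = 6.57e-05). A separate row of Hba-a1 alone had a log2 fold change of 2.81, and as these are near-identical copies the split between their rows is uncertain. E13.5 replicate 2 was highest for all adult globins.

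**Figure D4:**
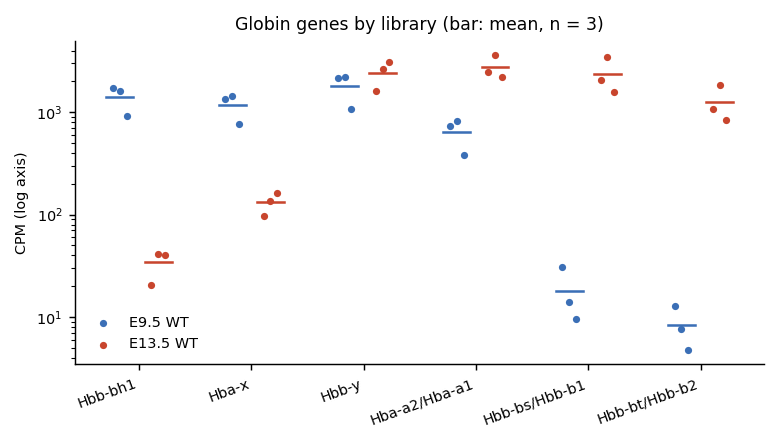
CPM (log axis) of 6 globin rows in each WT library, with points for replicates 1 to 3 from left to right and bars for the means of E9.5 (blue) and E13.5 (red). Hbb-bh1 and Hba-x are lower in all E13.5 libraries, Hbb-y overlaps between stages, and the adult beta rows rise from at most 30.6 CPM to at least 844 CPM.

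The 130 bases before the start of 4 of these genes are shown because an embryonic gene that fell, an embryonic gene that was not called and both adult types can then be seen side by side (RefSeq, GRCm38.p6). Capitals mark CCAAT and CACCC, motifs long described at globin promoters, which were searched on both strands:

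Hba-x, chr11:32276470-32276599, plus strand: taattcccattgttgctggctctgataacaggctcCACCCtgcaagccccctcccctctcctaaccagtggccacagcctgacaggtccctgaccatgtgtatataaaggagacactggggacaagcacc
Hbb-y, chr7:103853208-103853337, minus strand: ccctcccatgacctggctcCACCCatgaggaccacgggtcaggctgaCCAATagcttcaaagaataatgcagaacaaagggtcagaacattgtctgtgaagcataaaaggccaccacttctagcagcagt
Hba-a1, chr11:32283542-32283671, plus strand: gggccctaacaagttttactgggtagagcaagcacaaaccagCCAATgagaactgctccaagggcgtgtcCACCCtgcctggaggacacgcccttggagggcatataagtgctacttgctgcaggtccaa
Hbb-bs, chr7:103827929-103828058, minus strand: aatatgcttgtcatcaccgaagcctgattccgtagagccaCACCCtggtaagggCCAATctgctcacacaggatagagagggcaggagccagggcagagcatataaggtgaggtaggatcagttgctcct

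All 4 windows held CACCC once, a motif that 33.2% of 27025 promoter windows of the same length held. Hbb-y, Hba-a1 and Hbb-bs held CCAAT once, against 23.2% of the windows. The letters that GATA factors recognise, written GATAA, were found once, in Hba-x, and in 11.7% of the windows. None of these matches overlapped, and a match is a description, not a bound site.

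Of the other erythroid genes, most were not called. Of 23 tested, 4 were called higher and 2 lower (median 0.19), and Gata1, Klf1 and Alas2, the master factors and the first enzyme of haem synthesis, were not called (log2 fold changes -0.38, -0.10 and 0.31). E13.5 replicate 2 weighed on this. Klf1 was at 8.22, 8.39 and 4.93 CPM at E9.5 and 5.14, 12.9 and 2.08 CPM at E13.5, and without that library 10 erythroid genes were called lower and the median was -0.76. Without E13.5 replicate 3, and also with library totals, 7 were called higher, and in a fit of all 12 embryos 2. Those with at least 2-fold rises included Rhd, of the Rhesus complex, at 2.45, 2.12 and 1.39 CPM at E9.5 and 6.00, 16.2 and 4.06 CPM at E13.5 (log2 2.14 ± 0.49, adjusted p = 0.00280). Tspo2, a membrane protein of red cells, was at 0, 0 and 0.0815 CPM at E9.5 and 2.25, 3.98 and 1.42 CPM at E13.5 (a ratio of 90.3 with a 95% counting interval of 24.7 to 750.0, adjusted p = 3.58e-05). Add2, a membrane skeleton protein that neurons also make, was at 22.3, 19.2 and 16.6 CPM at E9.5 and 146, 132 and 133 CPM at E13.5 (log2 2.82 ± 0.10, adjusted p = 1.28e-08). Sptb, erythroid spectrin, was called 2-fold lower although its stages overlapped, at 63.6, 59.5 and 44.6 CPM at E9.5 and 22.6, 45.1 and 14.99 CPM at E13.5 (log2 -1.02 ± 0.33, adjusted p = 0.0169).

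Macrophage genes rose, and so did the granule protein genes that could be tested, while the few lymphoid genes tested went both ways. All 17 macrophage genes were called at least 2-fold higher (median 5.20), and their summed level was 10.4, 12.7 and 11.4 CPM at E9.5 and 271, 244 and 256 CPM at E13.5. Csf1r, the receptor for the macrophage growth factor, was at 1.20, 1.19 and 0.856 CPM at E9.5 and 46.8, 36.4 and 36.8 CPM at E13.5 (log2 5.20 ± 0.16, adjusted p = 8.68e-09). Spi1, the factor that directs cells to this lineage, was at 0.344, 0.486 and 0.326 CPM at E9.5 and 4.21, 3.57 and 4.34 CPM at E13.5 (log2 3.38 ± 0.22, adjusted p = 5.45e-07). C1qa, of complement, was at 0.0430, 0.132 and 0.0408 CPM at E9.5 and 16.4, 14.1 and 19.4 CPM at E13.5 (log2 7.77 ± 0.28, adjusted p = 1.76e-08). For Adgre1, which encodes the F4/80 antigen, values were 0, 0.132 and 0 CPM at E9.5 and 15.1, 13.1 and 13.4 CPM at E13.5, a ratio of 325 with a 95% counting interval of 111 to 1579 (adjusted p = 6.80e-08). The lysosomal protease gene Ctss was at 0.0860, 0 and 0 CPM at E9.5 and 11.2, 11.6 and 12.7 CPM at E13.5, a ratio of 417 with a 95% counting interval of 115 to 3445 (adjusted p = 4.04e-08). No E9.5 library reached any E13.5 library for a gene of this list. With at least 10 counts required in every library, 4 of its genes were called, all higher. Most of the list thus passed the filter on low values through E13.5, and its count and median rest on that. The summed level covers all 17 rows and does not depend on the filter. Of 10 granule protein genes, 7 passed the filter on low values and were called at least 2-fold higher. At E9.5 between 6 and 8 of the 10 were at 0, so most could pass that filter through E13.5 alone and their count is no support for a rise. A call was made for 2, both higher, under the requirement of 10 counts per library. S100a9 was at 0.0430, 0 and 0 CPM at E9.5 and 5.32, 6.16 and 4.37 CPM at E13.5, a ratio of 372 with a 95% counting interval of 66.5 to 14744 (adjusted p = 1.74e-07). Mpo, myeloperoxidase, was at 0.645, 0.530 and 0.489 CPM at E9.5 and 4.68, 4.97 and 3.05 CPM at E13.5 (log2 2.92 ± 0.26, adjusted p = 4.08e-06), and Ngp, which E9.5 libraries did not hold, was at least 16.3-fold higher (adjusted p = 5.26e-05). Cpa3, carboxypeptidase of mast cells, was among the 10 largest rises over all genes, at 0.0430, 0 and 0 CPM at E9.5 and 12.8, 12.2 and 11.8 CPM at E13.5 (a ratio of 864 with a 95% counting interval of 155 to 34167, adjusted p = 1.36e-08). Platelet genes were higher in 8 of 12 cases by at least 2-fold (median 1.07), and in 5 without E9.5 replicate 3 and in a fit of all 12 embryos, among them the chemokine Pf4 at 1.03, 1.28 and 0.938 CPM at E9.5 and 10.9, 10.5 and 7.74 CPM at E13.5 (log2 3.16 ± 0.19, adjusted p = 3.37e-07) and Ppbp (log2 4.45 ± 0.37, adjusted p = 2.68e-06). One member, Gp1bb, shares its row with Septin5, which neurons make, so its rise cannot be assigned. Rag1, which rearranges antigen receptor genes, was at 0.0860, 0.0883 and 0 CPM at E9.5 and 1.46, 1.43 and 1.25 CPM at E13.5 (log2 4.49 ± 0.47, adjusted p = 1.44e-05), and its partner Rag2 was too low to be tested. Ptcra, of the pre-T-cell receptor, went the other way, at 2.84, 3.27 and 4.28 CPM at E9.5 and 0.464, 0.545 and 0.382 CPM at E13.5 (log2 -2.89 ± 0.25, adjusted p = 3.32e-06). Of 10 lymphoid genes only 4 were tested. The others were Cd3g of the T-cell receptor complex, at 0 CPM in all 3 libraries at E9.5 and 0.393, 0.374 and 0.451 CPM at E13.5, at least 3.17-fold higher (adjusted p = 3.59e-04), and the kinase gene Lck, called lower (log2 -0.42 ± 0.12, adjusted p = 0.00782), a call lost with upper-quartile scaling and with library totals. The list summed to 12.3, 13.9 and 12.8 CPM at E9.5 and 9.35, 10.5 and 9.41 CPM at E13.5, lower in all E13.5 libraries than in all E9.5 libraries.

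Vessels, which are present at both stages, gave 1 endothelial gene of 16 at 2-fold or more, Robo4, at 5.12, 5.43 and 5.79 CPM at E9.5 and 17.6, 18.6 and 19.4 CPM at E13.5 (log2 1.76 ± 0.09, adjusted p = 1.26e-07), and a median of 0.12. Pecam1 was called higher (log2 fold change 0.76) and the VEGF receptor Kdr lower (-0.66), in both cases without overlap and under each of the scalings, while Cdh5 was not called (0.14, adjusted p = 0.0641).

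Liver plasma proteins rose, but by amounts that differed strongly between the E13.5 libraries. Of 25 tested, 18 were called at least 2-fold higher and none lower (median 2.01). The stages did not overlap for 13 of the 25, a smaller share than the 82.8% of all genes tested. Alb, albumin, was at 1.68, 2.03 and 1.06 CPM at E9.5 and 136, 413 and 51.2 CPM at E13.5 (log2 6.98 ± 0.90, adjusted p = 6.36e-05). Ahsg, fetuin A, was at 0, 0 and 0.0408 CPM at E9.5 and 10.6, 27.3 and 3.23 CPM at E13.5, a ratio of 973 with a 95% counting interval of 174 to 38458 (adjusted p = 1.15e-04). Kng1, kininogen, was at 0.258, 0.0883 and 0.0408 CPM at E9.5 and 2.93, 10.7 and 1.74 CPM at E13.5 (log2 5.27 ± 0.91, adjusted p = 4.51e-04). In each of these E13.5 replicate 2 was highest and replicate 3 lowest. Afp, the fetal albumin-like protein that the yolk sac also secretes, was at 113, 65.2 and 28.2 CPM at E9.5 and 184, 526 and 82.3 CPM at E13.5, so the stages overlapped (log2 1.94 ± 0.65, adjusted p = 0.0200). Apoa1 was not called (27.5, 13.6 and 2.57 CPM at E9.5 and 14.7, 38.1 and 4.82 CPM at E13.5; adjusted p = 0.645), nor were Apob and Rbp4 (-1.59 and -0.03), which like Afp were highest among E9.5 libraries in replicate 1, where the yolk sac list was also highest. The part of yolk sac tissue in these values was not tested. Without E9.5 replicate 3, 14 genes were called at least 2-fold higher and 1 lower. Without E13.5 replicate 2, 12 genes were called at least 2-fold higher, 1 was called lower and the median was 0.95, and without E13.5 replicate 3, 23 were called higher with a median of 2.46. The liver transcription factor gene Hnf4a was at 5.77, 3.05 and 1.92 CPM at E9.5 and 1.89, 6.53 and 3.05 CPM at E13.5 and was not called (adjusted p = 0.8503). Among liver enzymes, Cps1 of the urea cycle was called higher (log2 1.43 ± 0.38, adjusted p = 0.00656), whereas Arg1, arginase of the same cycle, was at 66.0, 61.1 and 69.7 CPM at E9.5 and 2.28, 2.21 and 2.08 CPM at E13.5 (log2 -4.90 ± 0.09, adjusted p = 1.22e-09), with no overlap and little spread between libraries.

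Heart and skeletal muscle moved in opposite directions. Of 22 cardiac genes, 16 were called lower, 12 at least 2-fold (median -1.15; 9 were called lower in a fit of all 12 embryos), whereas 19 of 23 skeletal muscle genes were called at least 2-fold higher (median 3.47). Myh6, the atrial myosin heavy chain, was at 368, 434 and 456 CPM at E9.5 and 16.5, 35.8 and 56.2 CPM at E13.5 (log2 -3.53 ± 0.34, adjusted p = 8.10e-06). Myh7, the ventricular one, was at 365, 360.1 and 467 CPM at E9.5 and 92.2, 64.9 and 134 CPM at E13.5 (log2 -2.03 ± 0.22, adjusted p = 2.09e-05). Tbx20, a heart transcription factor, was at 54.1, 52.0 and 52.8 CPM at E9.5 and 3.78, 4.15 and 5.59 CPM at E13.5 (log2 -3.55 ± 0.12, adjusted p = 1.37e-08). The factors Nkx2-5, Gata4 and Hand1 fell by 2.67, 2.49 and 3.05 on the log2 scale. Tnnt2, troponin T of the heart, fell less, by 0.61. Cardiac genes of the 3 E13.5 libraries did not reach the E9.5 libraries in sum, with 1586, 1679 and 1954 CPM at E9.5 and 645, 576 and 804 CPM at E13.5. The exception in the list was Myoz2, a Z-disc protein that slow skeletal muscle shares, at 0.258, 0.221 and 0.326 CPM at E9.5 and 12.96, 9.56 and 10.8 CPM at E13.5 (log2 5.34 ± 0.21, adjusted p = 2.78e-08), and Actn2, present in both muscle types, was called higher by 0.91.

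Myod1, the factor that commits cells to the skeletal muscle lineage, had 1 count in each E9.5 library and was at 0.0430, 0.0442 and 0.0408 CPM at E9.5 and 33.6, 24.4 and 23.3 CPM at E13.5 (a ratio of 634 with a 95% counting interval of 217 to 3079, adjusted p = 1.08e-08). Myog, which acts after it, was at 4.52, 3.05 and 3.91 CPM at E9.5 and 106, 87.7 and 83.8 CPM at E13.5 (log2 4.59 ± 0.14, adjusted p = 8.15e-09). The earlier factor Myf5 was at 2.93, 2.56 and 1.997 CPM at E9.5 and 3.82, 2.69 and 2.43 CPM at E13.5 and was not called (adjusted p = 0.312). Myh8, the perinatal myosin, was at 0.817, 0.662 and 0.652 CPM at E9.5 and 94.6, 70.1 and 62.7 CPM at E13.5 (log2 6.73 ± 0.22, adjusted p = 1.06e-08). Cacng1, of the muscle calcium channel, was at 0.0430, 0.0442 and 0.0408 CPM at E9.5 and 2.89, 1.77 and 1.91 CPM at E13.5 (a ratio of 51.2 with a 95% counting interval of 17.2 to 250.4, adjusted p = 1.44e-06). E13.5 replicate 1 was highest for these genes, and apart from Myf5 all 3 E13.5 libraries lay above all E9.5 libraries. The embryonic myosin Myh3 and the light chain Mylpf rose by 5.02 and 5.22. Casq1, the calcium buffer of the sarcoplasmic reticulum, was called lower against the list (14.4, 15.7 and 21.0 CPM at E9.5 and 7.75, 7.04 and 8.36 CPM at E13.5; log2 fold change -1.14 ± 0.15 SE). Of 10 smooth muscle genes, 5 were called higher and 1 lower (median 0.19). Only Myh11 and Actg2 were at least 2-fold higher. The list summed to 429, 450 and 573 CPM at E9.5 and 532, 526 and 555 CPM at E13.5, so the stages overlapped in sum. Myh11, the myosin of mature vessel and gut muscle, was at 0.990, 1.55 and 1.71 CPM at E9.5 and 13.46, 31.2 and 29.6 CPM at E13.5 (log2 4.12 ± 0.36, adjusted p = 3.77e-06). Actg2, the actin of gut muscle, was at 0.387, 0.397 and 0.815 CPM at E9.5 and 9.89, 15.9 and 16.2 CPM at E13.5 (log2 4.69 ± 0.30, adjusted p = 4.58e-07). Acta2, which the early heart also expresses, was not called (log2 fold change 0.04).

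The genes of connective tissue were higher without exception. All 20 were called higher, 18 of them at least 2-fold (median 3.86), and in sum they were at 1894, 1650.4 and 1449.5 CPM at E9.5 and 7649, 7210.3 and 7031 CPM at E13.5. The fibrillar collagens were abundant already at E9.5. Col1a2 was at 314, 270.3 and 218 CPM at E9.5 and 1726, 1639.7 and 1563 CPM at E13.5 (log2 2.62 ± 0.12, adjusted p = 5.69e-08). Col3a1 was at 729, 635 and 569.7 CPM at E9.5 and 2489, 2425 and 2379.8 CPM at E13.5 (log2 1.92 ± 0.08, adjusted p = 3.98e-08), and Col5a1 rose by 1.54. The small proteoglycan Ogn, nearly absent at E9.5, was at 0.387, 0.0883 and 0.122 CPM at E9.5 and 79.3, 96.9 and 82.99 CPM at E13.5 (log2 8.73 ± 0.21, adjusted p = 3.10e-09). Eln, elastin, was at 1.38, 2.25 and 1.22 CPM at E9.5 and 97.9, 83.04 and 83.2 CPM at E13.5 (log2 5.77 ± 0.16, adjusted p = 5.02e-09). Tnmd, a tendon membrane protein, was at 0, 0.0883 and 0 CPM at E9.5 and 9.96, 10.9 and 9.65 CPM at E13.5 (a ratio of 358 with a 95% counting interval of 98.9 to 2962, adjusted p = 6.24e-08). The largest rises over all genes included further members of this tissue that were on no list. Aspn, asporin, was at 0 CPM in all 3 libraries at E9.5 and 24.2, 29.8 and 23.1 CPM at E13.5, at least 201-fold higher (adjusted p = 5.70e-08). Kera, keratocan of the cornea and tendon, was at 0, 0.0442 and 0 CPM at E9.5 and 11.2, 15.6 and 13.8 CPM at E13.5 (a ratio of 956 with a 95% counting interval of 171 to 37780.3, adjusted p = 2.78e-08). Agtr2, the angiotensin type 2 receptor of fetal mesenchyme, was at 0 CPM in all 3 libraries at E9.5 and 120.0, 122 and 102 CPM at E13.5, at least 897-fold higher (adjusted p = 8.32e-09).

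In cartilage, 10 of 16 tested genes were called at least 2-fold higher and 2 at least 2-fold lower (median 3.44). With at least 10 counts required in every library, 5 were at least 2-fold higher and 2 at least 2-fold lower (median 0.63). The 18 rows of the list summed to 639, 618 and 690 CPM at E9.5 and 681, 661 and 718 CPM at E13.5, so the stages overlapped in sum. The matrix genes of differentiated cartilage rose. Acan, aggrecan, was at 0.774, 0.618 and 0.856 CPM at E9.5 and 16.1, 12.2 and 12.01 CPM at E13.5 (log2 4.15 ± 0.19, adjusted p = 5.40e-08). Matn1, matrilin 1, was at 0.129, 0.0883 and 0.0408 CPM at E9.5 and 4.14, 3.13 and 3.82 CPM at E13.5 (log2 5.36 ± 0.32, adjusted p = 2.95e-07). Cnmd, chondromodulin, was at 0.387, 0.662 and 0.571 CPM at E9.5 and 19.6, 15.8 and 17.9 CPM at E13.5 (log2 5.03 ± 0.18, adjusted p = 1.51e-08). None of these overlapped between stages. Sox9 and Col2a1, which mark the lineage from its start and other tissues such as the notochord, were called lower by 0.32 and 0.27 on the log2 scale, and both values turned to slightly above 0 with library totals. Against the list, Hapln1, which links hyaluronan to proteoglycans, was at 188, 180.2 and 187 CPM at E9.5 and 17.5, 22.2 and 18.8 CPM at E13.5 (log2 -3.24 ± 0.08, adjusted p = 3.10e-09). Matn3 was at 4.90, 5.70 and 4.08 CPM at E9.5 and 1.61, 1.395 and 1.67 CPM at E13.5 (log2 -1.65 ± 0.18, adjusted p = 1.91e-05). For bone, 6 of 10 tested genes were called at least 2-fold higher and none at least 2-fold lower (median 1.67). Runx2, the master factor of osteoblasts, was at 0.731, 0.707 and 1.02 CPM at E9.5 and 13.7, 15.4 and 14.8 CPM at E13.5 (log2 4.14 ± 0.15, adjusted p = 1.96e-08). Sp7, which acts downstream, was at 0.645, 0.883 and 0.652 CPM at E9.5 and 2.64, 2.79 and 2.08 CPM at E13.5 (log2 1.78 ± 0.23, adjusted p = 5.50e-05). Ibsp, bone sialoprotein, was at 0.129, 0.0883 and 0 CPM at E9.5 and 4.07, 1.05 and 0.798 CPM at E13.5 (log2 4.70 ± 0.94, adjusted p = 0.00123), with most of it in E13.5 replicate 1. Bglap, osteocalcin of mature bone, was too low to be tested.

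The epidermis gained its keratins. Of 16 tested genes, 11 were called at least 2-fold higher and 2 at least 2-fold lower (median 2.17). Krt5, of the basal layer, was at 2.67, 2.96 and 1.10 CPM at E9.5 and 139.6, 132 and 134 CPM at E13.5 (log2 5.93 ± 0.19, adjusted p = 8.92e-09). Its partner keratin gene Krt14 was at 0.860, 0.927 and 0.571 CPM at E9.5 and 74.8, 72.8 and 78.1 CPM at E13.5 (log2 6.58 ± 0.12, adjusted p = 1.22e-09). Krt15 was at 0.904, 0.353 and 0.408 CPM at E9.5 and 47.2, 48.7 and 49.9 CPM at E13.5 (log2 6.44 ± 0.19, adjusted p = 5.55e-09). The stages lay far apart in all libraries. Krt1 and Krt10, of the layers above, rose by 5.31 and 1.21. S100a14, an epithelial calcium-binding protein on no list, was at 0 CPM in all 3 libraries at E9.5 and 4.00, 3.71 and 3.68 CPM at E13.5, at least 29.7-fold higher (adjusted p = 6.72e-07). Lower were Dsp, the desmosome protein of all epithelia and the heart (log2 -1.08 ± 0.09, adjusted p = 3.29e-06), and Cldn6, a claudin of embryonic epithelia, at 53.4, 59.4 and 57.4 CPM at E9.5 and 12.4, 15.3 and 15.9 CPM at E13.5 (log2 -1.96 ± 0.10, adjusted p = 8.28e-08).

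Pan-neuronal genes rose, while progenitor genes moved both ways. All 24 pan-neuronal genes were called at least 2-fold higher (median 3.18), and their sum was 386, 352 and 346 CPM at E9.5 and 3454, 2837 and 3099.9 CPM at E13.5. The progenitor list was mixed, with 7 of 16 genes at least 2-fold lower and 3 at least 2-fold higher (median -0.36). Sox2, the factor of neural stem cells, was at 96.8, 98.9 and 103 CPM at E9.5 and 37.2, 29.2 and 31.1 CPM at E13.5 (log2 -1.61 ± 0.08, adjusted p = 1.19e-07), and Sox1 and Sox3 had log2 fold changes of -1.33 and -1.42. The proneural gene Neurog1 was at 6.97, 6.98 and 8.72 CPM at E9.5 and 2.61, 2.55 and 2.43 CPM at E13.5 (log2 -1.58 ± 0.14, adjusted p = 4.92e-06). The progenitor genes that rose were Fabp7, the fatty-acid-binding protein of radial glia, at 19.4, 16.1 and 18.6 CPM at E9.5 and 186, 142 and 164 CPM at E13.5 (log2 3.18 ± 0.11, adjusted p = 1.31e-08), the glutamate transporter Slc1a3 of the same cells (log2 1.34 ± 0.07, adjusted p = 1.70e-07), and Neurog2, a proneural gene of the cortex and sensory ganglia (log2 1.10 ± 0.14, adjusted p = 4.99e-05).

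Among neuronal genes, Tubb3, the neuronal tubulin, was at 71.0, 64.1 and 61.4 CPM at E9.5 and 615, 479.7 and 556 CPM at E13.5 (log2 3.07 ± 0.10, adjusted p = 9.26e-09). Dcx, doublecortin of migrating neurons, was at 15.9, 12.6 and 12.3 CPM at E9.5 and 405, 342 and 341 CPM at E13.5 (log2 4.74 ± 0.11, adjusted p = 2.56e-09). Stmn2, a tubulin regulator of growing axons, was at 16.3, 12.9 and 11.5 CPM at E9.5 and 282, 243 and 273 CPM at E13.5 (log2 4.30 ± 0.12, adjusted p = 4.34e-09). Replicate 1 was the highest library of its stage for these 3 genes. The largest rises of the list were in Scg2, secretogranin, at 0.0860, 0.353 and 0.122 CPM at E9.5 and 16.9, 12.6 and 16.3 CPM at E13.5 (log2 6.33 ± 0.30, adjusted p = 6.43e-08). Syt4, a synaptotagmin, was at 0.688, 0.353 and 0.693 CPM at E9.5 and 49.6, 43.6 and 42.1 CPM at E13.5 (log2 6.26 ± 0.16, adjusted p = 3.89e-09). Myt1l, a factor that holds neurons in their fate, was at 0.602, 0.751 and 0.571 CPM at E9.5 and 51.2, 35.4 and 39.5 CPM at E13.5 (log2 6.03 ± 0.20, adjusted p = 1.15e-08). These 3 were named for a large change without overlap. Transmitter and subtype genes were called at least 2-fold higher in 18 of 21 cases (median 3.68), and 1 was called lower, by less than 2-fold. With at least 10 counts required in every library, 7 were called at least 2-fold higher (median 3.19). Slc17a6, the vesicular glutamate transporter VGLUT2, was at 0.172, 0.309 and 0.245 CPM at E9.5 and 32.7, 28.9 and 28.9 CPM at E13.5 (log2 6.94 ± 0.16, adjusted p = 2.48e-09). Gad1, which makes GABA, was at 0.473, 0.530 and 0.652 CPM at E9.5 and 17.3, 12.8 and 15.03 CPM at E13.5 (log2 4.75 ± 0.18, adjusted p = 2.38e-08). The glycine transporter Slc6a5 was at 0.0430, 0 and 0 CPM at E9.5 and 2.32, 1.57 and 1.91 CPM at E13.5 (a ratio of 136 with a 95% counting interval of 24.0 to 5388, adjusted p = 2.47e-06). The neuropeptide Y gene Npy was at 0, 0.0442 and 0.0815 CPM at E9.5 and 13.3, 8.88 and 9.96 CPM at E13.5 (a ratio of 251 with a 95% counting interval of 85.5 to 1218, adjusted p = 8.53e-08). In TPM the glutamate marker stood above the GABA marker at E13.5, with 14.7 TPM of Slc17a6 against 10.8 TPM of Gad1, and the cortical VGLUT1 gene Slc17a7 reached 3.14 TPM (log2 3.07 ± 0.25, adjusted p = 2.37e-06).

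Of 15 forebrain genes, which include cortical neuron and regional factors, 11 were called at least 2-fold higher and none at least 2-fold lower (median 1.48). Neurod6, a factor of newborn excitatory neurons of the cortex, was at 0 CPM in all 3 libraries at E9.5 and 49.8, 33.4 and 36.3 CPM at E13.5, at least 311-fold higher (adjusted p = 1.58e-07). Neurod2, of the same family and cells, was at 0 CPM in all 3 libraries at E9.5 and 22.3, 12.6 and 15.2 CPM at E13.5, at least 131-fold higher (adjusted p = 1.09e-06). Tbr1, of deep-layer neurons, was at 0.0430, 0.132 and 0.0815 CPM at E9.5 and 23.1, 15.5 and 16.3 CPM at E13.5 (log2 7.67 ± 0.31, adjusted p = 2.90e-08). E13.5 replicate 1 was highest for all of these. The regional factors Emx2 and Emx1 of the telencephalon moved less. Emx2 was at 6.67, 10.6 and 7.42 CPM at E9.5 and 22.8, 23.9 and 22.4 CPM at E13.5 (log2 1.48 ± 0.15, adjusted p = 1.19e-05), and Emx1 rose by 2.71. Fxyd7, a brain regulator of the sodium pump on no list, was at 0 CPM in all 3 libraries at E9.5 and 8.10, 5.99 and 7.32 CPM at E13.5, at least 55.8-fold higher (adjusted p = 4.06e-07). Of glial and Schwann cell genes, 5 of 12 were called at least 2-fold higher and 1 at least 2-fold lower. S100b was at 0 CPM in all 3 libraries at E9.5 and 3.50, 3.85 and 3.58 CPM at E13.5, at least 28.4-fold higher (adjusted p = 7.37e-07). Aldh1l1 of astrocytes and radial glia rose by 3.53, and Olig2, which also marks motor neuron progenitors, fell (log2 -1.23 ± 0.17, adjusted p = 1.00e-04). Sox10 was called lower by 0.27, with overlapping stages and a value of 0.06 under library totals, and Foxd3 was not called (adjusted p = 0.933).

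Lens genes were uneven between the E13.5 libraries. Cryaa, the main crystallin of the lens, was at 0 CPM in all 3 libraries at E9.5 and 0, 24.9 and 28.5 CPM at E13.5, so that 2 of 3 E13.5 libraries held it, and since E13.5 replicate 1 held none the gene did not pass the filter on low values. Only 6 of 15 lens genes were tested, and 4 of them were called at least 2-fold higher (median 3.39). The crystallin genes given next were low at E9.5 and passed that filter through E13.5. With at least 10 counts required in every library, 2 lens genes were called higher, none of them at least 2-fold (median 0.63). Cryba4 was at 0.0430, 0 and 0 CPM at E9.5 and 0.9996, 4.12 and 4.79 CPM at E13.5 (a ratio of 234 with a 95% counting interval of 41.7 to 9292, adjusted p = 8.31e-05). Crybb1 was at 0.129, 0 and 0.122 CPM at E9.5 and 0.714, 5.55 and 6.77 CPM at E13.5 (log2 5.598 ± 1.01, adjusted p = 5.96e-04). Crybb3 was at 0.258, 0.265 and 0.163 CPM at E9.5 and 0.393, 8.10 and 7.81 CPM at E13.5 (log2 4.55 ± 1.01, adjusted p = 0.00229). In every one of these E13.5 replicate 1 lay nearest to the E9.5 level. Without that library 11 lens genes were called at least 2-fold higher, and also 11 without any 1 of the E9.5 libraries, since more genes then passed the filter. Retina and pigment genes of that library did not share this. Of 9 tested genes of that list, 4 were called at least 2-fold higher and 3 at least 2-fold lower. Rlbp1, of retinal glia and pigment epithelium, was at 0.344, 0.574 and 0.408 CPM at E9.5 and 11.1, 7.45 and 7.74 CPM at E13.5 (log2 4.30 ± 0.25, adjusted p = 2.56e-07). Dct, of melanin synthesis, was at 0.0860, 0.0442 and 0.0408 CPM at E9.5 and 6.39, 6.53 and 5.87 CPM at E13.5 (log2 6.67 ± 0.26, adjusted p = 2.43e-08). Early eye field factors fell, Six6 at 6.88, 8.17 and 7.26 CPM at E9.5 and 1.61, 1.70 and 1.46 CPM at E13.5 (log2 -2.22 ± 0.15, adjusted p = 5.41e-07) and Rax (log2 -1.67 ± 0.30, adjusted p = 5.67e-04), as did Mitf (-1.06).

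Endoderm-derived and urogenital organs gave smaller and mixed sets. In the lung list, 2 of 6 tested genes were at least 2-fold higher and 1 at least 2-fold lower. Sftpc, surfactant protein C of alveolar progenitors, was at 0 CPM in all 3 libraries at E9.5 and 0.678, 0.715 and 0.625 CPM at E13.5, at least 5.26-fold higher (adjusted p = 7.17e-05), and Foxj1 of ciliated cells rose (log2 1.45 ± 0.12, adjusted p = 2.90e-06). Foxa2, a factor of endoderm, floor plate and notochord, was lower, at 8.65, 9.41 and 11.9 CPM at E9.5 and 1.68, 2.04 and 2.36 CPM at E13.5 (log2 -2.30 ± 0.18, adjusted p = 1.57e-06). Nkx2-1, of lung, thyroid and forebrain, was not called (adjusted p = 0.186). In the intestine list, 3 of 9 genes were at least 2-fold higher and 3 at least 2-fold lower, the latter 5 without E13.5 replicate 2. Cdx1, a posterior factor of both tail bud and gut, was at 3.74, 3.31 and 3.18 CPM at E9.5 and 0.0357, 0.0340 and 0.139 CPM at E13.5 (log2 -5.52 ± 0.36, adjusted p = 4.87e-07). Cdh17, of gut epithelium, was at 0.0860, 0.0883 and 0 CPM at E9.5 and 0.893, 1.70 and 2.36 CPM at E13.5 (log2 4.75 ± 0.64, adjusted p = 8.15e-05). Fabp1, which the liver also makes, was highest in E13.5 replicate 2 like the liver genes, at 0.172, 0 and 0 CPM at E9.5 and 1.14, 3.68 and 0.382 CPM at E13.5 (log2 4.82 ± 1.16, adjusted p = 0.00359). Of 13 pancreas genes 5 were tested, of which 2 were at least 2-fold higher and 1 at least 2-fold lower. In that list Pdx1 and Ptf1a were too low to be tested, Cpa1 rose (log2 1.33 ± 0.22, adjusted p = 3.01e-04), and Nkx6-1, also a factor of the ventral neural tube, fell (log2 -2.49 ± 0.16, adjusted p = 4.60e-07).

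Of 13 kidney genes, 5 were at least 2-fold higher and 2 at least 2-fold lower. Lhx1 was at 1.29, 1.81 and 0.856 CPM at E9.5 and 15.7, 12.8 and 15.2 CPM at E13.5 (log2 3.47 ± 0.21, adjusted p = 3.40e-07). Osr1, of intermediate mesoderm and limb, was at 7.92, 10.2 and 7.62 CPM at E9.5 and 52.3, 49.0 and 49.6 CPM at E13.5 (log2 2.55 ± 0.11, adjusted p = 3.31e-08), while Six2, of nephron progenitors and facial mesenchyme, rose by 1.04. Podxl, a surface sialomucin of podocytes, vessels and early epithelia, was at 328, 305 and 322 CPM at E9.5 and 71.3, 76.0 and 73.8 CPM at E13.5 (log2 -2.11 ± 0.05, adjusted p = 2.03e-09), and Eya1 fell by 1.54 on the log2 scale. Of 15 endocrine genes 9 were tested, and 6 of these were at least 2-fold higher (median 1.26). With at least 10 counts required in every library, 3 were (median 1.03). Chga, chromogranin of endocrine cells and neurons, was at 1.89, 2.74 and 1.51 CPM at E9.5 and 20.4, 18.9 and 17.5 CPM at E13.5 (log2 3.21 ± 0.18, adjusted p = 1.75e-07). Cyp11a1, the first enzyme of steroid synthesis, was at 0.0860, 0.0883 and 0.326 CPM at E9.5 and 1.68, 0.817 and 1.08 CPM at E13.5 (log2 2.77 ± 0.50, adjusted p = 6.07e-04). Pomc was called higher by 0.84, Cga was at 0 at E9.5 and under 0.5 CPM at E13.5, and growth hormone, Gh, was at 0 in all 6 libraries. In the gonad list, 1 of 5 tested genes was at least 2-fold higher and 1 at least 2-fold lower. Inha, inhibin alpha, was at 1.98, 1.72 and 2.65 CPM at E9.5 and 8.96, 8.51 and 9.27 CPM at E13.5 (log2 2.07 ± 0.16, adjusted p = 1.92e-06), and Foxl2, also of eyelid and pituitary, fell (log2 -1.002 ± 0.18, adjusted p = 6.28e-04). Imprinted growth genes split, with 4 of 12 at least 2-fold higher and 2 at least 2-fold lower. The noncoding RNA gene Meg3 was at 299, 309 and 309 CPM at E9.5 and 911, 929 and 897 CPM at E13.5 (log2 1.58 ± 0.05, adjusted p = 6.97e-09) and its neighbour Dlk1 rose by 1.39, H19 was called higher by 0.99 and its neighbour Igf2 by 0.51. Mest was at 2418, 2476 and 2443 CPM at E9.5 and 1099, 1132 and 1087 CPM at E13.5 (log2 -1.14 ± 0.04, adjusted p = 1.57e-08) and Phlda2 fell by 1.59 on the log2 scale.

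Several of the 10 largest falls over all genes were on no list. Nkx2-6, a homeobox gene of the pharyngeal pouches and early heart, was at 4.17, 4.15 and 5.54 CPM at E9.5 and 0 CPM in all 3 libraries at E13.5, at least 44.3-fold lower when E13.5 is set to the floor of 0.104 CPM (adjusted p = 8.55e-07). Foxi2 was at 14.5, 14.4 and 18.5 CPM at E9.5 and 0.0714, 0.0681 and 0.243 CPM at E13.5 (log2 -6.90 ± 0.29, adjusted p = 3.34e-08). Nkx2-9, of the ventral neural tube, was at 4.52, 5.48 and 7.75 CPM at E9.5 and 0.0357, 0 and 0.104 CPM at E13.5 (log2 -6.85 ± 0.47, adjusted p = 7.31e-07). Cyp26c1, which degrades retinoic acid, was at 10.4, 14.3 and 13.98 CPM at E9.5 and 0.143, 0.272 and 0.243 CPM at E13.5 (log2 -5.84 ± 0.24, adjusted p = 2.96e-08). All E13.5 libraries of these lay below 0.5 CPM. Car4, carbonic anhydrase 4, was at 39.7, 41.5 and 45.5 CPM at E9.5 and 0.536, 0.476 and 0.868 CPM at E13.5 (log2 -6.06 ± 0.16, adjusted p = 3.76e-09). Nepn, nephrocan, was at 13.7, 19.9 and 13.98 CPM at E9.5 and 0, 0.170 and 0.417 CPM at E13.5 (log2 -6.29 ± 0.44, adjusted p = 8.07e-07).

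Chd2 and Chaserr, the genes the series was made to study, changed little between the stages in WT embryos. Chd2 was at 136, 132 and 127 CPM at E9.5 and 116, 114 and 113 CPM at E13.5 (log2 -0.20 ± 0.04, adjusted p = 0.00140), a decrease of 0.20 that turned to a value of 0.13 with library totals. Chaserr was at 18.5, 17.2 and 20.0 CPM at E9.5 and 14.8, 22.8 and 20.0 CPM at E13.5 and was not called (log2 0.05 ± 0.15, adjusted p = 0.768), with overlapping stages.

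The same contrast in Chaserr+/- embryos, which the WT fit did not use, gave a measure of how far these programmes recur in other libraries. Whether they shared litters or collection days with the WT embryos of their stage is not given. Recurrence therefore does not separate stage from litter or day. In these 6 libraries 23.5% and 10.1% of 15774 genes tested were called at least 2-fold higher and lower. Of the 5334 genes with a call of at least 2-fold in WT embryos, 4748 had one in the same direction in Chaserr+/- embryos (89.0% of the WT genes and 89.6% of the 5298 of Chaserr+/- embryos), and 2 in the opposite direction. Among members of the lists it was 362 of 404. The lists recurred to different degrees. All 24 pan-neuronal and all 13 Lin28 and let-7 target genes were again at least 2-fold changed, in the direction seen in WT, and Lin28a had a log2 fold change of -8.86. At least 2-fold lower were 7 cardiac genes against 12 in WT and 3 yolk sac genes against 6. At least 2-fold higher were 4 platelet genes against 8, 3 lens genes against 4, 4 endocrine genes against 6 and 5 central Hox genes against 9. The spread between libraries was larger than in WT embryos, with a biological coefficient of variation of 0.180 against 0.0965. Cardiac genes summed to 1996, 1405 and 127 CPM at E9.5 and 623, 676 and 464 CPM at E13.5, where E9.5 replicate 3 was low, and the liver list to 132, 118 and 267 CPM at E9.5 and 6522, 421 and 247 CPM at E13.5, where E13.5 replicate 1 was highest. Central Hox genes summed to 29.7, 152 and 101 CPM at E9.5. Trophoblast and decidua genes summed to 22.3 CPM in E13.5 replicate 3, against at most 3.57 CPM in the other Chaserr+/- libraries. Tpbpa was at 8.75 CPM there and at 0 in those others. A test of the difference between the genotypes' stage effects called 2 of 16173 genes, 0.0124%, and 642 at an unadjusted p under 0.05. Neither of the 2 was a member of a list. The sexes were not balanced between the genotypes. All Chaserr+/- libraries but E13.5 replicate 3 read as female, with Xist between 2068 and 2582 CPM, and the part of sex was not tested. The difference between genotypes was not otherwise pursued, and a missing call does not show that the genotypes acted alike.

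**Figure D5:**
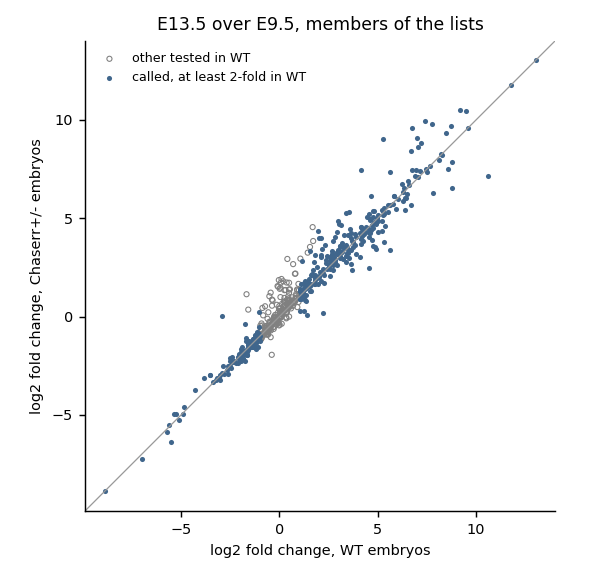
Log2 fold change of E13.5 over E9.5 for each list member tested in both genotypes, with WT embryos on the horizontal and Chaserr+/- embryos on the vertical axis and the line of equal values in grey. Filled points passed the test at 2-fold or more in WT embryos. Of 404 such members, 362 also did in Chaserr+/- embryos in the same direction.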

How the data were processed

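Whole E9.5 and E13.5 embryos were lysed in TRI Reagent, and stranded TruSeq libraries of poly(A) RNA were sequenced on an Illumina NextSeq instrument. The authors quantified reads with RSEM on RefSeq transcripts in which the last exon of Chaserr had been edited, and deposited estimated counts (RSEM expected counts) and TPM for each gene. RSEM divides reads between copies and isoforms, so near-identical genes are uncertain. The submitters' processing notes name RSEM and the builds mm9 and mm10 without saying which served the embryo libraries, so no coordinates of rows are given. FPKM and the other samples were not used here. The study's methods name DESeq2, which here is an alternative.

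Of 24990 rows, 99.9% had a symbol and 374 held several gene IDs. Estimated counts were rounded, filtered with filterByExpr, scaled by TMM and tested by the quasi-likelihood test of edgeR 4.0.16 (R 4.3.3) with Benjamini-Hochberg adjustment over all genes tested. Groups came from sample titles. WT libraries alone entered the WT fit, and Chaserr+/- embryos were fitted alike. The alternatives were DESeq2 1.42.0, other scalings, other filters, rows summed by symbol, a fit of all 12 embryos, the replicate number as a block, and leaving out each library. On simulated data with 200 genes changed by 1 on the log2 scale, 84% were called, with 3 false calls among 15543 genes, and of those changed by 1.5, 95.5%, with 11 among 15553. In these simulations rises equalled falls and all other genes were unchanged. They therefore do not test the scaling where most genes change, as between these stages. Counting intervals (95%) and floors of 3 counts cover counting error only.

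The lists and members were chosen with earlier results of these data known. Genes were named by rule: of each list the first 3 members and the 3 called with the largest change of at least 2-fold, with a TPM of at least 1 and no overlap; the 10 largest rises and falls over all genes with a TPM of at least 5; the 10 highest TPM of each stage; Chd2 and Chaserr; and members called at least 2-fold against their list. Some genes that this rule names are not reported here. The following names were added after their values were seen: Actn2, Aldoa, Apob, Arid3a, Arid3b, Bglap, Car9, Ccnd1, Ccnd2, Cd3g, Cdc25a, Ceacam5, Ctsj, Ctsq, Dnmt3b, Gata4, Gh, Hand1, Hes7, Hmga1, Hmga2, Hoxa9, Hoxb13, Igf2bp1, Igf2bp2, Igf2bp3, Krt1, Krt10, Lck, Ldha, Mesp1, Mesp2, Myc, Myh3, Mylpf, Nkx2-5, Nusap1, Pgk1, Pkm, Prl7a2, Psg21, Rbp4, Tpbpa, Tyms, Vegfa and Xist.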

Additional observations from a re-analysis of the deposited data

Results flagged for a closer look

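The change from E9.5 to E13.5 differed between WT and Chaserr+/- embryos for 2 genes by the interaction term of edgeR's quasi-likelihood test over 16173 genes, and neither belongs to a list. AI506816 was at 4.22, 4.06 and 4.24 CPM at E9.5 and 0.785, 1.05 and 1.01 CPM at E13.5 in WT embryos, and at 4.03, 4.18 and 5.36 CPM and then 24.0, 22.8 and 24.3 CPM in Chaserr+/- embryos. Its stage change was higher in Chaserr+/- embryos by 4.54 ± 0.19 on the log2 scale (adjusted p = 8.05e-07). Gm5512 was at 0 CPM in all WT libraries of E9.5 and at 1.00, 1.33 and 1.74 CPM at E13.5, and at 1.08, 1.81 and 1.21 CPM and then 0.865, 1.21 and 1.503 CPM in Chaserr+/- embryos. Its fitted difference was -8.36 (adjusted p = 0.0237), a value that depends on the prior count because WT libraries of E9.5 held none.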

How the results depend on the processing

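Scaling had the widest effect on the calls. At least 2-fold lower were 1041 genes with upper-quartile scaling and 745 with library totals, against 1583, and called lower were 3885 with library totals, against 6041. The counts of WT calls stayed within 1.5 times under the other alternatives, and leaving out 1 library gave 12223 to 12502 calls, 6422 to 6517 higher, 5801 to 5993 lower, 3746 to 3874 at least 2-fold higher and 1542 to 1763 at least 2-fold lower. Whether replicate numbers pair the WT libraries cannot be settled here. Deviations of same-numbered libraries correlated at 0.052, 0.24 and 0.16. Each library correlated best with its own number, except E13.5 replicate 1, at 0.093 with E9.5 replicate 3. Both replicate 2 libraries also had high Xist. Nothing in the labels ties the numbers, so the main fit used no pairing. With the replicate block 6510 genes were called higher and 5920 lower. In Chaserr+/- embryos, leaving out 1 library gave 10895 to 11648 calls. The difference between genotypes gave 3 genes with DESeq2 and 1 to 4 when a library was left out.

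Of 237 genes named in the text and tested, 200 kept direction and side of the threshold under all alternatives. Signs turned mostly where the change was near 0 and was not called. With upper-quartile scaling the log2 fold changes were Cdkn1b 0.17, Foxd3 0.17, Klf1 0.0907, Rbp4 0.16, Rpl41 0.0323 and Vegfa 0.0736. With library totals they were Cdkn1b 0.31, Chd2 0.13, Col2a1 0.0593, Foxd3 0.32, Klf1 0.23, Rbp4 0.30, Rpl41 0.18, Sox10 0.0618, Sox9 0.0115 and Vegfa 0.22. With at least 10 counts in every library they were Cdkn1b 0.0617, Foxd3 0.0686 and Rbp4 0.0513. Over the fits without 1 library, they ranged for Acta2 -0.0577 to 0.15, Alas2 -0.11 to 0.54, Apoa1 -0.58 to 1.24, Cdkn1b -0.0879 to 0.0213, Chaserr -0.0945 to 0.20, Foxd3 -0.077 to 0.014, Hnf4a -0.53 to 0.61, Hoxd1 -0.13 to 0.33, Klf1 -0.99 to 0.33 and Rbp4 -0.97 to 0.47. Calls were lost for Hoxa7, Hoxa9, Hoxd10 and Tbx6 with DESeq2, Chd2, Col2a1, Lck, Sox10 and Sox9 with upper-quartile scaling, Lck, Rplp1, Sptb and Tnnt2 with library totals, Col2a1 and Sox10 with at least 10 counts in every library, Sox10 with the replicate block, Afp, Hoxa9, Sox10, Sptb and Tbx6 in 1 or more fits without 1 library, and Actn2, Afp, Casq1, Hk1, Hoxa9, Hoxd10, Rhd, Sox10, Sptb and Tnnt2 in the fit of all 12 embryos. The cause was not tested, other than by the construction of each scaling. With no filter on low values 11 lens genes were called at least 2-fold higher, against 4, and 10 endocrine genes, against 6. With at least 10 counts in every library, no lens gene and 3 endocrine genes were. Genes under about 1 CPM, such as Tbx6, rest on few counts.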
